A study of Homo sapiens with 2 samples.

Results

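Urokinase, its receptor and the tissue inhibitors of metalloproteinases were followed in conditioned medium labelled as coming from Su.86.86, a human pancreatic cancer cell line. The members are all antibodies of the array named uPA or uPAR or beginning with TIMP, which gave 6 of 507 capture antibodies: uPA (gene PLAU), uPAR (PLAUR), TIMP-1, TIMP-2, TIMP-3 and TIMP-4. By the sample titles, 1 culture was transfected with siJAG1, an siRNA against the Notch ligand Jagged 1, and the other with the control siRNA siNC. Per the labels, both were grown in DMEM with 10% fetal bovine serum, medium was collected 48 h after transfection, and each array took up 100 µL of it over 2 h and was then stained with streptavidin carrying Cy3. Each group has 1 array, so every comparison is between these 2 arrays, with no p-value and no replicate check. Whether serum was still present in the collected medium is not given in the sources used here.

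Urokinase-type plasminogen activator is a secreted serine protease that cleaves plasminogen to plasmin, a broad protease that degrades fibrin and matrix and can activate some pro-metalloproteinases. Its receptor uPAR is anchored to the cell surface by a lipid and can be shed, so that a soluble form may occur in medium. TIMPs are secreted proteins that bind and block matrix metalloproteinases, the enzymes that break down collagens and other matrix components. TIMP-3 differs from the others in that it binds to the extracellular matrix. Pancreatic cancers are known for a dense matrix and for producing urokinase and TIMP-1.

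The labels of the arrays are in doubt. A sheet of single spots, deposited in identical copies with each sample, has 4 value columns. Their headings are BX3mir-124 and BX3_NC, then Panc1_mir-124 and Panc1_NC, and none of these names a sample of the study. In the column BX3_NC, the mean of both spots equalled the signal labelled siJAG1 for 507 of 507 antibodies, and in the column Panc1_NC it equalled the signal labelled siNC for 507 of 507 (tolerance 1e-06). Panc1 is the name of another pancreatic cancer line, and neither heading mentions JAG1. No column was assigned to a sample. The pairs of spots in BX3_NC and Panc1_NC are given below only to show how far apart the readings behind each deposited mean lay, and the columns headed mir-124 were not used. If the headings were right, the arrays would compare 2 cell lines, with no knockdown between them. Every comparison below, and its direction, therefore rests on the sample labels. Jagged 1 is read by 0 antibodies of the array, and the knockdown was therefore not measured.

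Relative expression, the value deposited for each antibody, is the signal minus a baseline, divided by the mean of the positive controls minus that baseline. The positive controls therefore stand at 1. The same sheet of spots shows where the controls come from. The baseline, 33644 signal units on the array labelled siJAG1 and 33619 on the array labelled siNC, equalled the lowest single spot in the matching column. The listed negative means of 34178 and 34188 equalled the means of 32 spots named Blank, whose SDs between spots were 126 and 146. Another 16 spots, named neg, were not part of the negative mean and ranged from 36710 to 57830 on the array labelled siJAG1 and from 35068 to 56592 on the array labelled siNC. These neg spots, in columns 1 to 4 of rows 1 to 4 and columns 27 to 30 of rows 33 to 36, share those corners with the positive controls, and averaged 46542 units on the array labelled siJAG1 and 43044 on the array labelled siNC. Whether stray signal from the controls reached them was not tested. An antibody is called measured here when its relative expression reached 0.2 on at least 1 array. It is called higher or lower when it then also differed by at least 1.5-fold, which is 0.58 on the log2 scale. For this call, a value below the floor of 0.2 was set to 0.2.

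Of the 6 members, uPA and TIMP-1 were measured, both of them on both arrays, and the other 4 stayed below 0.2 on each. uPA was lower on the array labelled siJAG1 by 1.94-fold and TIMP-1 differed by 1.02-fold. Both members read within the range of the neg spots on the array labelled siJAG1, where uPA, at 46355 units, was at about the mean of those spots. On the array labelled siNC, TIMP-1 read within their range and uPA above it. So 1 member was called lower, 0 were called higher, and TIMP-1 was called neither. Over the array, 39 antibodies were measured, of which 15 (38.5%) were called lower and 7 (17.9%) higher. With lower calls this frequent, 1 lower call among 2 measured members is near the background.

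**Figure D1:**
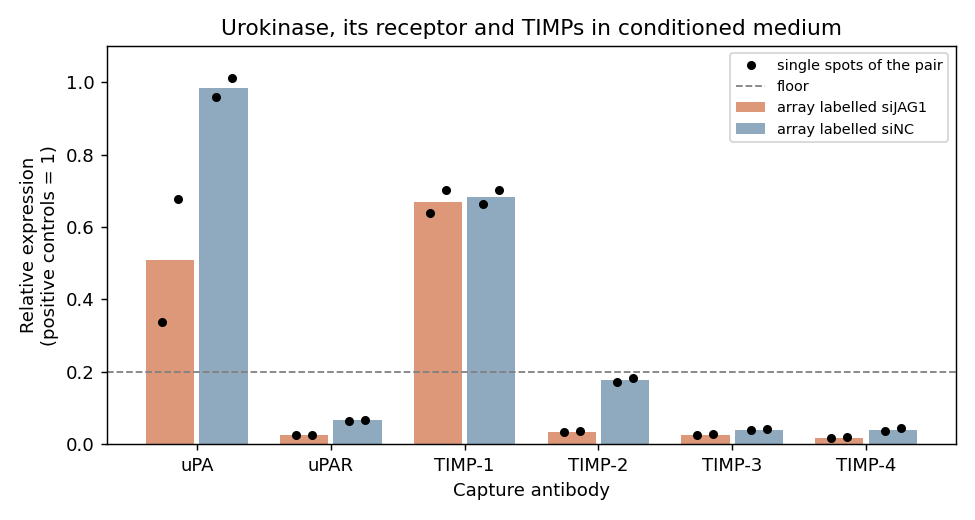
Relative expression (positive controls at 1) of the 6 antibodies on the array labelled siJAG1 (left bar of each pair) and the array labelled siNC (right bar), with black points for the 2 single spots whose mean is the bar, from the columns headed BX3_NC and Panc1_NC. The uPA spots of the array labelled siJAG1 lie far apart, at 0.339 and 0.678, both below the uPA spots of the array labelled siNC, while the TIMP-1 spots of the arrays overlap.

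uPA, the protease that starts plasminogen activation, read 0.508 in relative expression on the array labelled siJAG1, against 0.985 on the array labelled siNC. The signals were 46355 and 57019.5 units, and the log2 ratio was -0.96. The spots behind the value labelled siJAG1 read 50595 and 42115 units, against 57668 and 56371 units behind the value labelled siNC. In relative expression these are 0.678 and 0.339, against 1.01 and 0.958. The spots of the arrays do not overlap, but the fall ranges from 1.41-fold to 2.99-fold over the 4 ways of pairing 1 spot of each array, so the smallest is short of the 1.5-fold limit. This range comes from 2 spots of 1 array each and is no confidence interval. It shows that the direction for uPA held at every spot, and that its size was poorly fixed.

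The uPA pair on the array labelled siJAG1 was among the most discordant of all. Its spots differed by 0.339 in relative expression, the number 2 of 507 in size after Activin B at 0.530, where the median difference was 0.00472 and the 95th percentile 0.0304. On the array labelled siNC the uPA spots differed by 0.0546, against a median of 0.00686. These medians are over all 507 antibodies, most of them dim. Over the 39 measured antibodies the median difference was 0.0130 on the array labelled siJAG1 and 0.0360 on the array labelled siNC. Among these 39, the uPA pair was number 2 and number 15 in size, in the same order. The uPA spots were printed in rows 35 and 36, the last of the slide, and the row 36 spot was the lower on both arrays. For the other 21 antibodies of these rows on the array labelled siJAG1, the row 36 spot minus the row 35 spot ranged from -0.0234 to 0.0166 with a median of -0.000639, against -0.339 for uPA. All 21 read at or below 0.0807 there, so they cannot show how far a bright pair in these rows may differ. On the array labelled siNC the same difference ranged from -0.0162 to 0.538 over the 21, against -0.0546 for uPA. A pair of these rows there thus differed by more than 0.339, with the row 36 spot the higher. Which of the uPA spots reads closer to the protein in the medium was not tested.

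**Figure D2:**
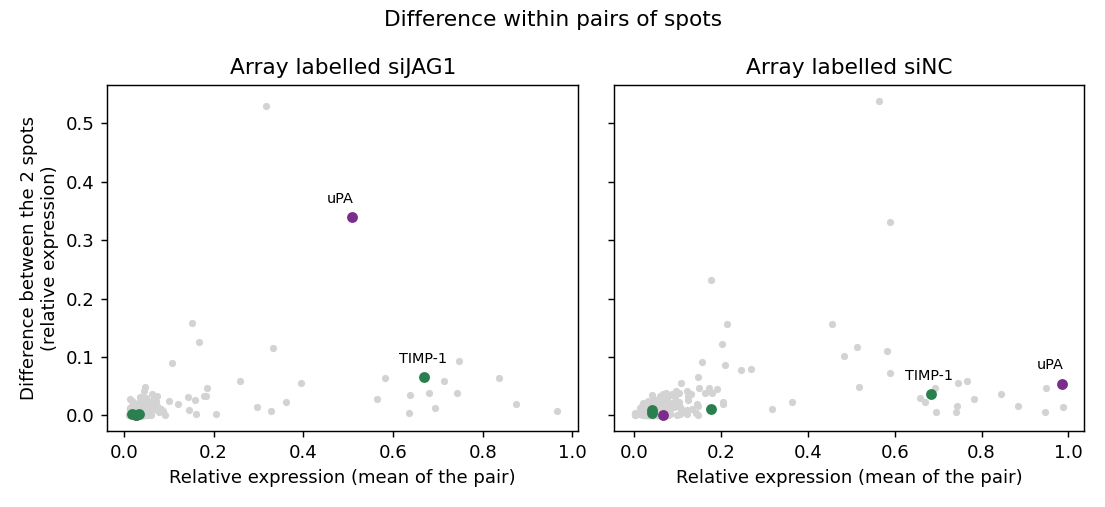
Difference between the 2 spots of each antibody (y axis, relative expression) against their mean (x axis, relative expression), for the array labelled siJAG1 (left) and the array labelled siNC (right). Spots come from the columns BX3_NC and Panc1_NC; purple points are uPA and uPAR, green points the TIMPs, grey points the other antibodies. uPA stands out on the left, at a difference of 0.339.

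At the upper end, the uPA spots of the array labelled siNC lay at the level of the positive controls. Positive control spots were picked by their place on the slide, which gave 12, and their mean equalled the listed positive mean on each array. These 12 spots read 57716 to 59652 units on the array labelled siJAG1 and 56524 to 58407 on the array labelled siNC. One uPA spot labelled siNC, at 57668, was inside the range of its own array and the other, at 56371, just below it. Whether readings still rise with the amount of protein at that level was not tested.

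uPAR, the cell surface receptor that holds uPA at the membrane, was dim. Its relative expression was 0.0262 on the array labelled siJAG1, against 0.0659 on the array labelled siNC, with signals of 34300.5 and 35185 units. Set against the Blank spots, these readings were 0.971 SD and 6.82 SD above the Blank mean. On the array labelled siJAG1 it was therefore not told apart from Blank spots by a limit of 3 SD, and on the array labelled siNC it passed that limit. That limit is passed easily: 35.7% of all antibodies passed it on the array labelled siJAG1 and 67.1% on the array labelled siNC, so a reading above it is not in itself a sign of the protein. uPAR was printed beside uPA in rows 35 and 36, and uPA, at 0.508 and 0.985, was the single measured antibody among its 5 neighbours. Whether uPA signal reached the uPAR spots was not tested. No fold is given for uPAR.

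TIMP-1, an inhibitor of most matrix metalloproteinases, read 0.670 in relative expression on the array labelled siJAG1, against 0.683 on the array labelled siNC. The signals were 50406.5 and 49837.5 units, so the reading was higher by 569 units on the array labelled siJAG1 before scaling, while the log2 ratio of relative expression was -0.03. The spots read 0.703 and 0.637 on the array labelled siJAG1, against 0.701 and 0.664 on the array labelled siNC. The spots of the arrays overlap. Over the 4 spot pairings, the log2 ratio ranged from -0.14 to 0.08, so the deposited difference was smaller than the difference between spots of 1 array. No antibody beside TIMP-1 in print was measured on either array.

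The change of uPA relative to that of TIMP-1 does not depend on any factor that multiplies a whole array. The log2 ratio of uPA minus that of TIMP-1 was -0.93 as deposited, and also without scaling and after division by the array's median or total. It was -0.84 after quantile normalization and -0.96 with the negative mean subtracted. With the signals used as they stand, with no background taken off, it was -0.32 and short of 1.5-fold. The log2 ratios taken singly did move. Division by the median gave -0.19 for uPA, no longer a call, and 0.74 for TIMP-1, a call higher. Division by the total gave -0.38 and 0.55, with neither called. The array medians are readings of dim antibodies, 0.0299 on the array labelled siJAG1 and 0.0509 on the array labelled siNC. Whether the arrays should be equal in these medians is not known. Single spots moved the difference as well: over the spots of both antibodies it ran from -1.66 to -0.36, and the smallest of these is short of 1.5-fold. The sign of the difference was thus the same at all spots, while its size was not fixed by 1 array per group.

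**Figure D3:**
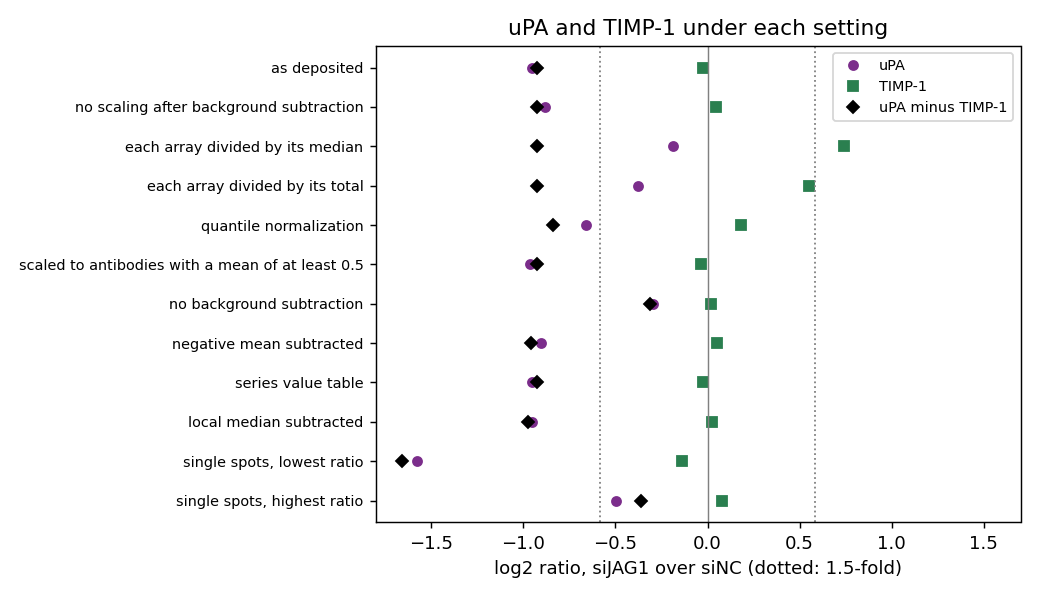
Log2 ratio, siJAG1 over siNC (x axis), of uPA (purple circles), TIMP-1 (green squares) and their difference (black diamonds) under each setting (y axis), with dotted lines at 1.5-fold. The uPA values run from -1.58 to -0.19, and those of the difference from -1.66 (single spots) to -0.32 (no background subtraction).

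TIMP-2, an inhibitor that also takes part in the activation of pro-MMP-2 at the cell surface, came closest to the floor among the dim members. Its relative expression was 0.0343 on the array labelled siJAG1, against 0.177 on the array labelled siNC, with signals of 34502 and 37814 units. The spots read 0.0360 and 0.0326 on the array labelled siJAG1, against 0.182 and 0.171 on the array labelled siNC, so the pairs agree closely and do not overlap between arrays. Against the Blank spots, the readings were 2.57 SD and 24.8 SD above the mean. With a floor of 0.1 in place of 0.2, TIMP-2 would be called lower, by at least 1.77-fold, and uPA would be the other lower call among the members, in a set of 73 antibodies of which 27 (37%) were lower. TIMP-2 was printed beside TIMP-1, which read 0.670 and 0.683 on the arrays labelled siJAG1 and siNC. TIMP-1 was the 1 measured antibody among the 8 neighbours of TIMP-2. Whether TIMP-1 signal reached the TIMP-2 spots was not tested.

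TIMP-3, the matrix-bound inhibitor, read 0.0267 on the array labelled siJAG1, against 0.0401 on the array labelled siNC. These values were 1.06 SD and 2.63 SD above the Blank mean. TIMP-4 read 0.0179 on the array labelled siJAG1, which is below the Blank mean of 0.0213 there, against 0.0404 on the array labelled siNC, 2.68 SD above the Blank mean. Neither antibody passed the limit of 3 SD on either array, so neither protein was detectable at this signal, and no fold is given.

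Dim readings in the print columns around the members were higher on the array labelled siNC. For each member, the antibodies with a mean below 0.2 printed within 2 columns of it, in any row, were taken, 80 to 86 a member. Their median relative expression was 0.0215 to 0.0241 on the array labelled siJAG1, against 0.0454 to 0.0513 on the array labelled siNC. TIMP-3 and TIMP-4 on the array labelled siNC, at 0.0401 and 0.0404, thus lay below this median of their columns, and uPAR at 0.0659 just above it. Closer in print the readings were mixed. On the array labelled siNC, the 8 antibodies next to TIMP-3 read 0.0218 to 0.177, and the 8 next to TIMP-4 read 0.0265 to 0.146. Both members lay within these ranges. The pattern did not hold over the whole slide: in print columns 26 to 30, far from the members, the median of 80 dim antibodies was 0.0463 on the array labelled siJAG1, against 0.0375 on the array labelled siNC. Subtracting this column-wise local median gave log2 ratios of -0.95 for uPA and 0.02 for TIMP-1, so neither call changed.

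**Figure D4:**
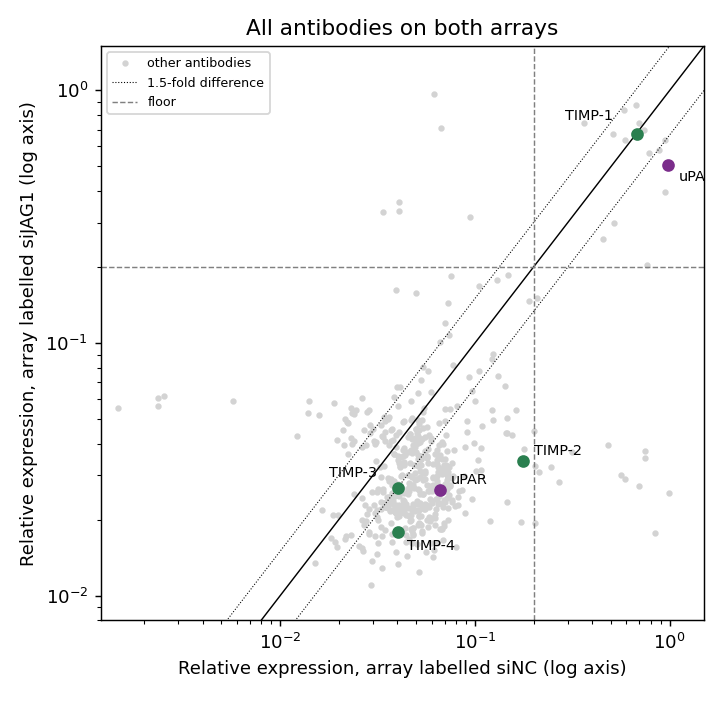
Relative expression of 507 antibodies on the array labelled siJAG1 (y, log axis) against the array labelled siNC (x, log axis), with the equal line, dotted lines at 1.5-fold and dashed lines at the floor of 0.2. uPA (purple) lies below the 1.5-fold band at 0.508 against 0.985, TIMP-1 (green) on the equal line, and uPAR, TIMP-3 and TIMP-4 in the mass of dim antibodies; TIMP-2 lies just left of the floor at 0.177.

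Other antibodies of the plasminogen system were few. Besides uPA and uPAR the array holds 3, and 0 antibodies to tPA, PAI-1, PAI-2, plasminogen or vitronectin, so neither the inhibitors of uPA nor its substrate was read. Over the array, 39 of 507 antibodies were measured, and 38.5% of the 39 were called lower. Of the 5 antibodies of this list, 2 were measured. The 1 called lower was uPA itself, and 0 were called higher. S100A10, a partner of annexin A2 that can bind plasminogen at the cell surface, was the other measured one, at 0.875 on the array labelled siJAG1, against 0.671 on the array labelled siNC, and was called neither with a log2 ratio of 0.38. Angiostatin, a fragment of plasminogen, read 0.0536 on the array labelled siJAG1, against 0.0279 on the array labelled siNC. LRP-1, a receptor that takes up uPA bound to its inhibitor, read 0.0547 on the array labelled siJAG1, against 0.0745 on the array labelled siNC.

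The enzymes that TIMPs block were not measured by the same floor. Of 17 matrix metalloproteinase antibodies, 0 reached 0.2, and the highest value was 0.143, of MMP-20 on the array labelled siNC. Over the array 39 of 507 antibodies reached it, so 0 of 17 is near that share. MMP-2, the gelatinase whose activation involves TIMP-2, read 0.0134 on the array labelled siJAG1, against 0.0402 on the array labelled siNC. MMP-9, the gelatinase that TIMP-1 binds as a pro-enzyme, read 0.0266 on the array labelled siJAG1, against 0.0336 on the array labelled siNC. The medians over the 17 were 0.0285 on the array labelled siJAG1 and 0.0479 on the array labelled siNC, against 0.0299 and 0.0509 over all antibodies. Among 3 other antibodies to the coagulation proteases' cofactor and protease inhibitors, TFPI, which blocks tissue factor, was measured and called higher, at 0.361 on the array labelled siJAG1, against 0.0410 on the array labelled siNC, at least 1.81-fold. Over the array, 7 of the 39 measured antibodies (17.9%) were called higher. The protease inhibitor SLPI read 0.0590 on the array labelled siJAG1, against 0.0468 on the array labelled siNC, and tissue factor itself 0.0389 against 0.0394.

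**Figure D5:**
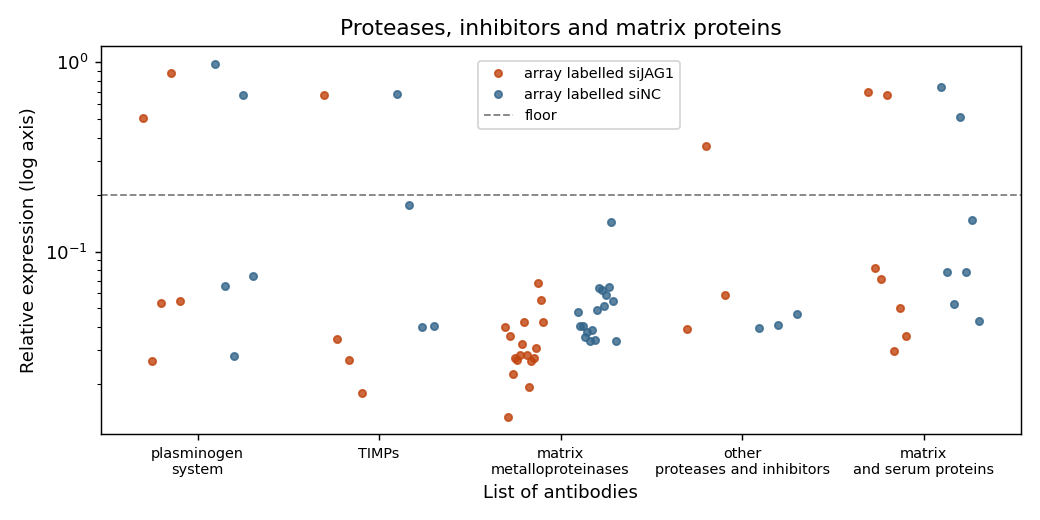
Relative expression (log axis) of the antibodies in 5 lists on the array labelled siJAG1 (left in each list) and the array labelled siNC (right), 1 point per antibody, with the floor of 0.2 dashed. In the TIMP list TIMP-1 alone is above the floor, at 0.670 and 0.683, and all 17 metalloproteinases lie below it.

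Matrix and serum proteins were looked for beside the members because the growth medium contained serum. The list found on the array holds no antibody to albumin, fibrinogen, fibronectin or vitronectin, so the amount of serum in the medium was not read. Of the 7 antibodies in it, 2 were measured and both were called neither. Over the array, 39 of 507 were measured. Thrombospondin-1, a matrix glycoprotein of platelets and many cells, read 0.694 on the array labelled siJAG1, against 0.740 on the array labelled siNC. Endostatin, a collagen XVIII fragment, read 0.674 on the array labelled siJAG1, against 0.513 on the array labelled siNC. The part of serum in the TIMP-1 and uPA readings was not tested. Of 4 binding partners of uPA, uPAR or their complexes, the IGF-II receptor alone was measured. It read 0.0323 on the array labelled siJAG1, against 0.245 on the array labelled siNC, a log2 ratio of -2.93. With 0.0323 set to the floor of 0.2 the fold was 1.23, so it was called neither. The EGF receptor and the integrins LFA-1 and MAC-1 stayed at or below 0.0706.

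Lists of antibodies grouped by cell type were also read. The epithelial or carcinoma list includes the chemokines IL-8 and GRO, and its readings were not taken as a sign of the cell type. Of 4 antibodies in that list, 3 were measured, where 39 of 507 were over the array. Of those 39, 17.9% were called higher and 38.5% lower. Lipocalin-2 was called higher, at 0.965 on the array labelled siJAG1 against 0.0620 on the array labelled siNC. In the same order, IL-8 was called lower at 0.396 against 0.948, and GRO neither at 0.635 against 0.947. Galectin-3 was not measured, at 0.146 against 0.190. Of 10 leukocyte surface antibodies and 7 endothelial antibodies, 0 were measured, which is near the share over the array, 39 of 507. Their summed values were 0.509 and 0.306 on the array labelled siJAG1, against 0.631 and 0.258 on the array labelled siNC. The epithelial markers EpCAM, E-cadherin and CEA are read by 0 antibodies of the array, so the labelled cell type could not be checked by them.

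By distance over the 2 relative expressions, the 5 antibodies nearest to uPA were IL-8 at 0.118, IGFBP-2 at 0.126, GRO at 0.133, sFRP-4 at 0.211 and Thrombospondin-1 at 0.308. The 5 nearest to TIMP-1 were BIK at 0.0265, Thrombospondin-1 at 0.0624, Glypican 3 at 0.0740, ICAM-2 at 0.0986 and sFRP-4 at 0.145. With 2 values an antibody, this describes the readings and says nothing of shared control. IL-8 and GRO, the 2 chemokines among these, read 0.396 and 0.635 on the array labelled siJAG1, against 0.948 and 0.947 on the array labelled siNC.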

How the data were processed

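Conditioned medium was read on antibody arrays with 507 capture antibodies, 1 array per group. Per the file headers, each sample's sheet holds a signal intensity, deposited with no unit, and a relative expression. The latter is a ratio made by the authors, as solved from the values. Scanner, software and any background step were not given in the sources used here. Ratios in the deposited value table matched those of the sheets (512 of 512 values a sample equal, tolerance 1e-06). Rows named Positive or Neg were left out.

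Log2 ratios are siJAG1 over siNC with no pseudocount; an array below 0.2 was set to 0.2 and the fold written as at least. Of the 4 single-spot columns, assigned to no sample, 2 were read for spot spread and 2 were not used. Settings tried were other scalings, backgrounds and floors, single spots and local medians. Calculations used Python 3.11.15, pandas 2.3.3 and numpy 2.4.6, and were tested on made-up values. Members were named through RefSeq gene names (6 of 6 matched). Members, lists and limits were chosen with earlier results of these data known. Antibodies outside the lists, measured neighbours in print and the 5 nearest readings are not named, except Activin B, chosen after its value was seen. Precision is limited by 1 array per group.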

Additional observations from a re-analysis of the deposited data

How the results depend on the processing

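With 1 array per group, no replicate could be left out. No paired analysis was possible because each group has 1 array. The log2 ratio of uPA kept its sign in all settings, from -1.58 to -0.19. It fell below the 1.5-fold limit when arrays were divided by their median (-0.19) or total (-0.38), without background subtraction (-0.30) and for the pairing of spots with the smallest fall (-0.50). TIMP-1 ranged from -0.14 to 0.74 and passed the limit on division by the median alone, at 0.74. Their difference ran from -1.66 to -0.32; it missed the limit without background subtraction (-0.32) and for the spots with the smallest difference (-0.36). Unsubtracted signals have little range, because the positive controls were 1.72 and 1.68 times the negative mean on the arrays labelled siJAG1 and siNC. Antibodies called over the array were 7 higher and 15 lower as reported, 15 and 8 after median division, 13 and 10 after total division, 1 and 0 without background subtraction, 11 and 27 at a floor of 0.1, 48 and 296 with no floor, 3 and 8 with signals of at least 1.5 times the negative mean, and 16 and 165 at the Blank mean plus 3 SD. Spot, local-median and Blank settings were chosen after seeing the data. Log2 ratios of the 4 dim members were not given under the settings, since both arrays lay below the floor of 0.2. Their calls did change with the floor. With no floor, uPAR, TIMP-2, TIMP-3 and TIMP-4 were called lower too, among 296 lower calls in 507 antibodies. At the Blank mean plus 3 SD, uPAR and TIMP-2 were called lower, among 165 lower calls in 403 antibodies. At a floor of 0.1, TIMP-2 was the single dim member called lower. Beyond a setting's own construction, the cause of a move was not tested.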
